A study of Mus musculus with 96 samples.

Results

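The comparison described here is the effect of the Q140 allele in the cerebral cortex of mice that lack Msh6. It sets 8 Q140 Msh6-/- mice against 8 Msh6-/- mice, chosen by the genotype and tissue in the sample titles, which is 16 of the 96 RNA sequencing samples of the series. All mice are on a C57BL/6 background and were dissected at 6 months of age, and each group holds 4 males and 4 females. The Q140 mice are heterozygous for a knock-in Htt allele, and the Msh6-/- genotype is shared by both groups, so it is not what differs between them. The labels name neither the kind of Msh6 mutation nor the number of repeats in any mouse. Used beside them are 4 further cortex groups of 8 mice each (Q140 Msh6+/-, Msh6+/-, Q140 and wild type), and the 48 striatum samples of the same 6 genotypes, 8 in each group, among them those of the same Q140 Msh6-/- and Msh6-/- mice.

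Htt encodes huntingtin, and an expanded CAG repeat in it causes Huntington's disease. The repeat grows further in some cells of the body during life, above all in striatal neurons, and this growth depends on DNA mismatch repair proteins. MSH6 is part of the complex that recognises base mismatches and small loops, while MSH3 is the protein of this pathway best known for driving repeat expansion. The striatum is the brain region hit earliest and hardest in the disease, and the cortex sends it much of its excitatory input.

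The cortex libraries held 18903890 to 22275870 counts in Q140 Msh6-/- mice and 19092210 to 22886441 counts in Msh6-/- mice. Summed over 11 genes of cortical excitatory neurons, the level was 7839 to 8508 CPM (read counts scaled to a common library size) in Q140 Msh6-/- cortex and 8346 to 9041 CPM in Msh6-/- cortex, against 3050 to 3399 and 3227 to 4037 CPM in the striatum of the same genotypes. The 22 striatal projection neuron markers summed to 1714 to 1889 CPM in Q140 Msh6-/- cortex and 1739 to 1929 CPM in Msh6-/- cortex. In 1 Msh6-/- cortex library, animal 29-2, blood markers summed to 52.5 CPM, against a median of 4.32 CPM in its group, and leaving it out gave 24 called genes again, all 24 of them the same.

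Msh6 and Htt were examined first. Msh6 (chromosome 17, 87975062 to 87990892, GRCm38) had 7.33 to 8.96 CPM in Q140 Msh6-/- cortex (median 8.13) and 7.65 to 10.1 CPM in Msh6-/- cortex (median 8.94), while wild-type cortex had 18.2 to 20.8 CPM. Every Msh6-/- mouse of either group therefore lay below every wild-type mouse, yet reads from the gene remained. Htt (chromosome 5, 34761740 to 34912534) had 257 to 279 CPM in Q140 Msh6-/- cortex (median 265) and 272 to 295 CPM in Msh6-/- cortex (median 279). The groups overlapped, and the log2 fold change of Htt was -0.08 ± 0.03 (SE), with an adjusted p of 0.789. Elsewhere edgeR called Htt lower in Q140 mice: in Msh6+/- cortex (-0.14, adjusted p = 0.0465), Msh6-/- striatum (-0.11, 0.0106) and Msh6+/+ striatum (-0.12, 0.00546). In Msh6+/+ cortex it was at -0.08 and not called (edgeR adjusted p = 0.627).

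Few genes differed between the cortex of Q140 Msh6-/- and Msh6-/- mice, and most of the changes were small. Of 17622 genes tested, 24 passed an adjusted p of 0.05 (0.136% of genes tested) by edgeR's quasi-likelihood test, of which 8 rose (0.0454%) and 16 fell (0.0908%). At an unadjusted p under 0.05 the count was 945 genes (5.36%). Only 3 of the 24 changed by more than 2-fold, Gm2420, Abhd1 and Tmc3, and 21 changed by less than 1.5-fold. The smallest absolute log2 fold change among them was 0.14. In 22 of the 24 genes all 8 Q140 Msh6-/- mice lay on the same side of the Msh6-/- mean, and in the other 2, Map6d1 and Ddit4l, 7 did. The genes were chosen in these same mice, so this follows in part from the choice. The ranges of the groups did not overlap for 5 of the 24 (Abhd1, Atraid, Abca8a, Lamp5 and Cgref1), against 9 (0.0511%) of all genes tested. At the edge of the threshold, Tmc3 was the last gene called, at an adjusted p of 0.0405, and the predicted gene Gm42878 the next one, at 0.0512.

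**Figure D1:**
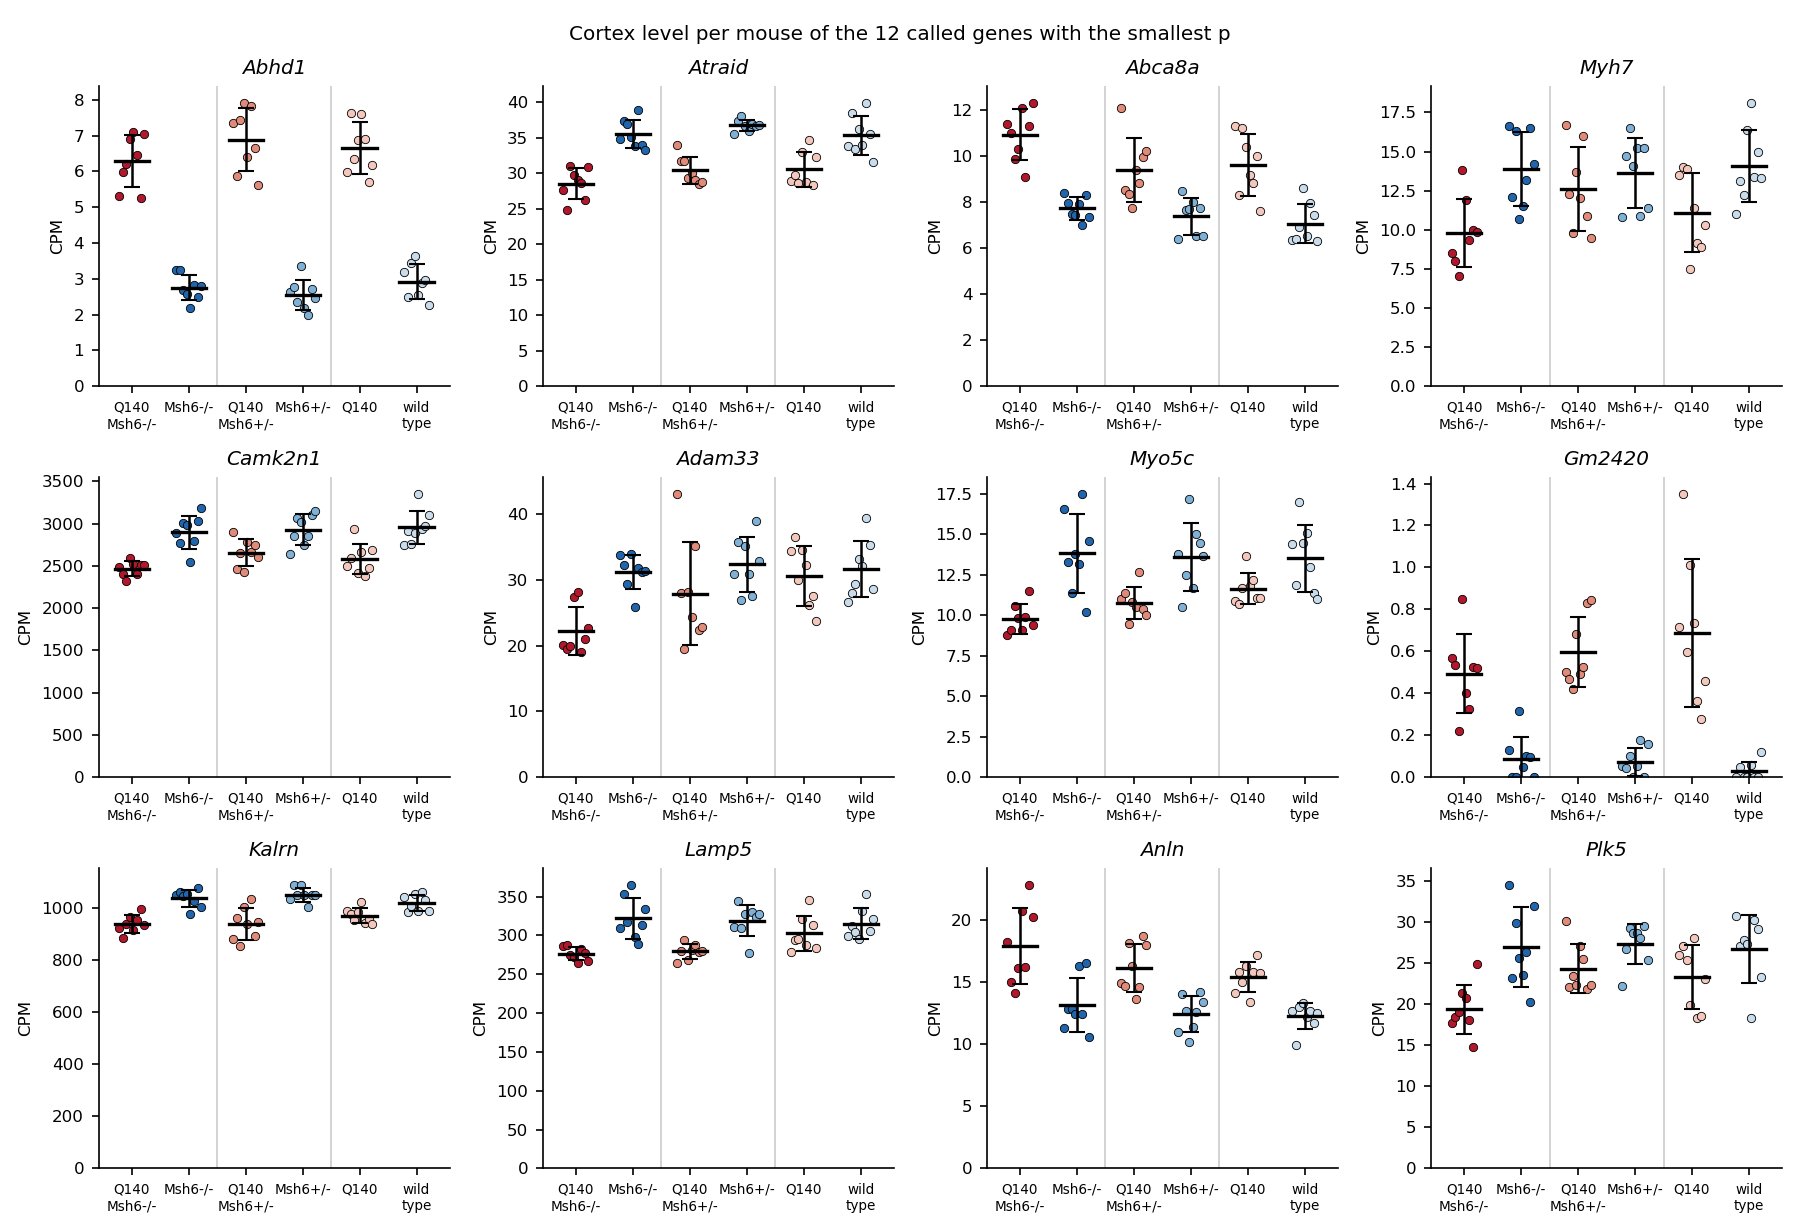
CPM per mouse (vertical axis, starting at 0) for the 12 called genes with the smallest p, in the 6 cortex groups, each Q140 group left of the same Msh6 genotype without Q140. Points are mice, bars the mean and whiskers the SD (n = 8). Abhd1 separates the Q140 mice from the others in every Msh6 genotype, while Adam33 averages 22.2 CPM in Q140 Msh6-/- and 31.1 CPM in Msh6-/- mice, against 30.6 CPM in Q140 and 31.6 CPM in wild-type mice.

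The 2 largest changes, those of Gm2420 and Abhd1, lay on chromosome 5, close to Htt itself. Of the 24 called genes 5 were on this chromosome, all on the same side of Htt and between 2.03 and 3.82 Mb from it. Within 5 Mb of Htt 5 of 140 tested genes were called (3.57%), against 19 of 16425 on the other chromosomes (0.116%). None was called among the 51 genes at 5 to 10 Mb, the 104 at 10 to 20 Mb, the 166 at 20 to 50 Mb or the 732 farther away on chromosome 5, by the same edgeR test. In the same stretch of 140 genes, 2 were called for Q140 in Msh6+/+ cortex and 5 in Msh6+/- cortex. Htt itself, called in Msh6+/- cortex, is not counted in the stretch. Effects of the Q140 allele itself and of DNA inherited with it near Htt cannot be told apart in this design. This was not tested.

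Abhd1, named for the alpha/beta hydrolase fold of its protein and listed in the annotation as a processed transcript, showed the clearest change (30950066 to 30955091, 3.81 Mb from Htt). Its level ran from 5.26 to 7.11 CPM in Q140 Msh6-/- mice (median 6.34), against 2.19 to 3.25 CPM in Msh6-/- mice (median 2.74). Every Q140 mouse was higher than every mouse without Q140. The log2 fold change was 1.18 ± 0.10, with an adjusted p of 1.01e-12. Abhd1 overlaps Preb, a gene on the opposite strand, and Preb averaged 63.4 CPM in Q140 Msh6-/- mice and 62.8 CPM in Msh6-/- mice (log2 0.01 ± 0.03, adjusted p = 0.998).

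Gm2420, a predicted gene (32720330 to 32736194), was almost silent without Q140. In Q140 Msh6-/- mice it had 0.22 to 0.851 CPM (median 0.523), or 5 to 17 reads per library and 81 reads in all. In Msh6-/- mice it had 0 to 0.316 CPM (median 0.0735), or 0 to 6 reads and 14 in all, with no read in 3 of 8 mice. The groups overlapped through 1 Msh6-/- mouse, animal 24-3. The log2 fold change of 2.42 ± 0.45 (adjusted p = 0.00347) is imprecise at so few reads, and without that mouse it was 3.02.

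The other 3 genes of this stretch moved less. Atraid, named for its induction by retinoic acid, fell: it had 24.9 to 31 CPM in Q140 Msh6-/- mice (median 28.9), against 33.3 to 38.9 CPM in Msh6-/- mice (median 35), with a log2 change of -0.31 ± 0.05 (adjusted p = 1.12e-04). The 2 ranges did not overlap. Atraid shares its place with Slc5a6 on the opposite strand, a vitamin transporter gene, which averaged 25.1 CPM in Q140 Msh6-/- mice and 22.3 CPM in Msh6-/- mice (log2 0.17 ± 0.05, adjusted p = 0.405).

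Cgref1, which encodes a secreted calcium-binding protein, rose to 9.57 to 12.5 CPM in Q140 Msh6-/- mice (median 10.7), against 6.89 to 9.46 CPM in Msh6-/- mice (median 8.3), again without overlap. Its log2 fold change was 0.37 ± 0.08 (adjusted p = 0.0318). Mrpl33, a protein of the large mitochondrial ribosome subunit, rose to 11.6 to 15.4 CPM in Q140 Msh6-/- mice (median 13.5), against 10.6 to 12.6 CPM in Msh6-/- mice (median 11.6). These ranges overlapped, and the log2 fold change was 0.25 ± 0.05 (adjusted p = 0.0190). The strand setting of the counting is not given in the sources used here, and 8 of the 24 called genes overlap an annotated gene on the opposite strand: Abhd1, Atraid, Mrpl33, Myh7, Pknox2, Tspan11, Tspan2 and Tmc3. For these, reads of the partners may not have been told apart.

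**Figure D2:**
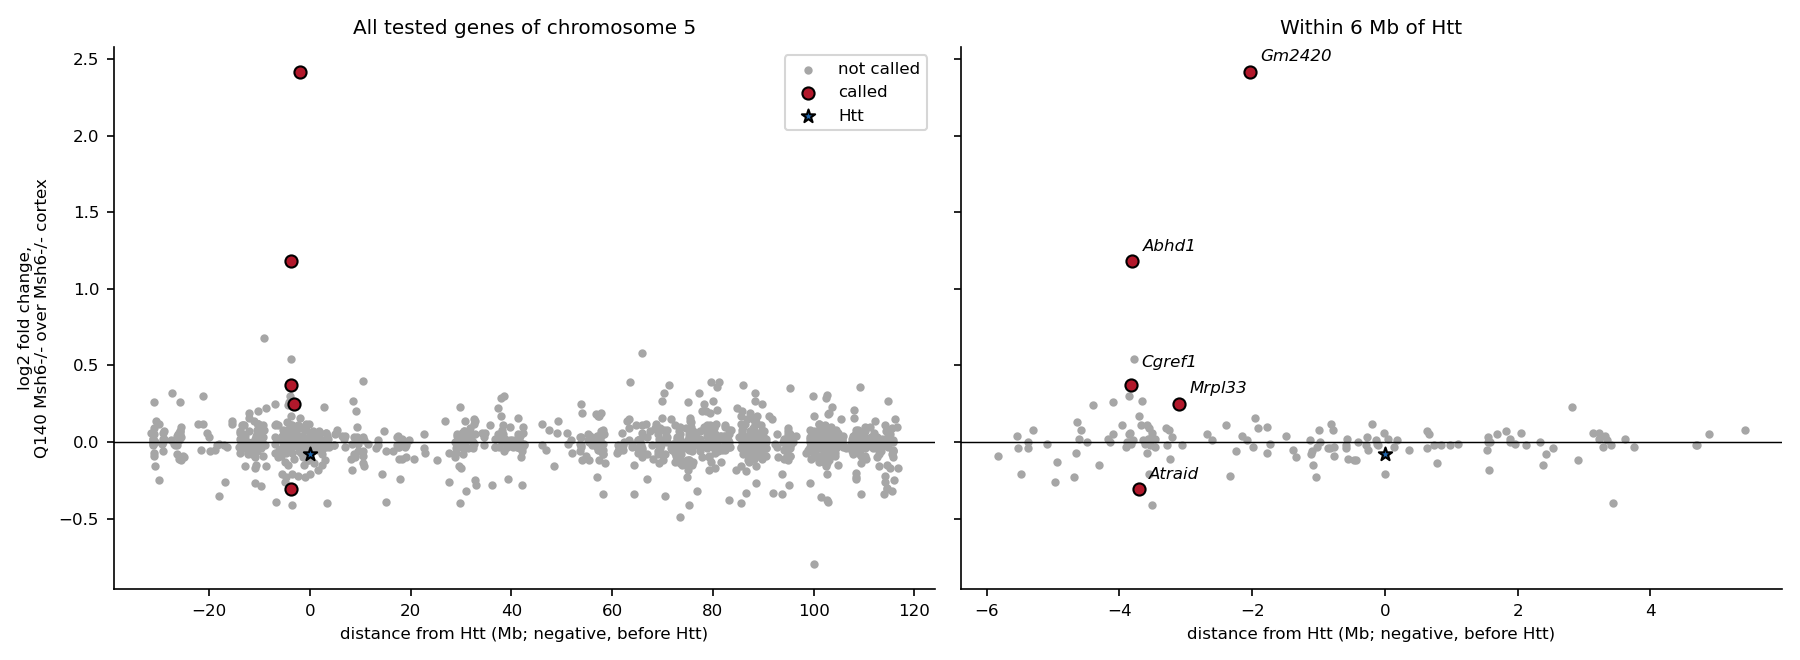
Log2 fold change of Q140 Msh6-/- over Msh6-/- cortex for the tested genes of chromosome 5 with a position (vertical axis) by distance from Htt in Mb, on the whole chromosome (left) and within 6 Mb (right). The 5 called genes, in red, all lie between 2.03 and 3.82 Mb before Htt, and Htt, the star, is at -0.08.

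Away from chromosome 5, 19 genes were called, 4 higher and 15 lower. Among those that rose were 2 genes known mainly from oligodendrocytes, the cells that make myelin. Abca8a, which encodes a lipid transporter of the ABC family (chromosome 11, 110025634 to 110095978), had 9.1 to 12.3 CPM in Q140 Msh6-/- mice (median 11.2), against 7.01 to 8.41 CPM in Msh6-/- mice (median 7.69). No mouse of one group reached the other, and the log2 fold change was 0.50 ± 0.08 (adjusted p = 1.27e-04). Anln encodes anillin, an actin-binding protein of dividing cells that is also found in myelin. It had 14.1 to 22.8 CPM in Q140 Msh6-/- mice (median 17.2), against 10.6 to 16.5 CPM in Msh6-/- mice (median 12.6), with overlapping ranges and a log2 fold change of 0.45 ± 0.09 (adjusted p = 0.00676).

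A further 2 genes with strong expression in oligodendrocytes fell. Tspan2, a tetraspanin, had 43.1 to 51.9 CPM in Q140 Msh6-/- mice (median 46.3), against 49.6 to 62.9 CPM in Msh6-/- mice (median 55.5; log2 -0.26 ± 0.06, adjusted p = 0.0194). Car2, carbonic anhydrase 2, had 82.4 to 94.5 CPM in Q140 Msh6-/- mice (median 88.5), against 94.2 to 115 CPM in Msh6-/- mice (median 103; log2 -0.20 ± 0.04, adjusted p = 0.0194). The ranges of Tspan2 overlapped, and those of Car2 overlapped only between 94.2 and 94.5 CPM. The 12 oligodendrocyte markers, a list that holds none of these 4 genes, summed to 1670 to 2335 CPM in Q140 Msh6-/- cortex (median 1812) and 1911 to 2397 CPM in Msh6-/- cortex (median 2028). None of the 12 was called, none stood at 0, and their median log2 fold change was -0.083, against -0.001 for all genes tested. Their part in the changes of these 4 genes was not tested. In bulk tissue, fewer cells of a type and less RNA per cell cannot be told apart.

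Camk2n1, Kalrn and Rtn4r fell by small amounts. Camk2n1 encodes an inhibitor of CaMKII, the kinase central to synaptic plasticity, and was the most abundant called gene. It had 2325 to 2589 CPM in Q140 Msh6-/- mice (median 2496), against 2545 to 3180 CPM in Msh6-/- mice (median 2935), and its log2 fold change was -0.23 ± 0.04 (adjusted p = 0.00256). All but 1 of the Q140 mice lay below the lowest mouse without Q140. Kalrn, a guanine nucleotide exchange factor that shapes dendritic spines, had 882 to 996 CPM in Q140 Msh6-/- mice (median 935), against 974 to 1076 CPM in Msh6-/- mice (median 1047; log2 -0.14 ± 0.03, adjusted p = 0.00347). Rtn4r, the Nogo receptor that restrains axon growth, had 90.2 to 106 CPM in Q140 Msh6-/- mice (median 99.7), against 101 to 116 CPM in Msh6-/- mice (median 111; log2 -0.16 ± 0.03, adjusted p = 0.0176). For Kalrn and Rtn4r the ranges overlapped, though all 8 Q140 mice were below the Msh6-/- mean.

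Lamp5, a lysosome-associated membrane protein of neurons and a marker of upper cortical layers and of some interneurons, fell without overlap. It had 265 to 288 CPM in Q140 Msh6-/- mice (median 277), against 289 to 365 CPM in Msh6-/- mice (median 315), a log2 fold change of -0.22 ± 0.04 (adjusted p = 0.00376). Map6d1, a relative of the microtubule stabiliser MAP6, had 58.6 to 76.3 CPM in Q140 Msh6-/- mice (median 64.9), against 68.3 to 82.5 CPM in Msh6-/- mice (median 75.1; log2 -0.18 ± 0.04, adjusted p = 0.0217). The homeobox transcription factor gene Pknox2 had 79.6 to 88.5 CPM in Q140 Msh6-/- mice (median 81.1), against 85.4 to 94.4 CPM in Msh6-/- mice (median 90.8; log2 -0.14 ± 0.03, adjusted p = 0.0174). Map6d1 and Pknox2 overlapped between the groups.

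Of the genes with lower levels, those with the larger falls were of mixed function. Myh7, the slow beta myosin heavy chain known from heart and skeletal muscle, had 7.05 to 13.8 CPM in Q140 Msh6-/- mice (median 9.6), against 10.7 to 16.6 CPM in Msh6-/- mice (median 13.7), a log2 fold change of -0.51 ± 0.08 (adjusted p = 5.49e-04). Adam33, a membrane-bound metalloprotease, had 19 to 28.2 CPM in Q140 Msh6-/- mice (median 20.5), against 25.8 to 33.9 CPM in Msh6-/- mice (median 31.5; log2 -0.50 ± 0.09, adjusted p = 0.00277). Myo5c, a class V myosin that moves vesicles, had 8.78 to 11.5 CPM in Q140 Msh6-/- mice (median 9.6), against 10.2 to 17.5 CPM in Msh6-/- mice (median 13.6; log2 -0.50 ± 0.09, adjusted p = 0.00277). In all of these the lowest mice without Q140 lay within the range of the Q140 mice.

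Plk5, a polo-like kinase relative expressed in brain, had 14.8 to 24.9 CPM in Q140 Msh6-/- mice (median 18.7), against 20.3 to 34.5 CPM in Msh6-/- mice (median 26; log2 -0.48 ± 0.10, adjusted p = 0.0137). Ddit4l, an inhibitor of mTOR signalling also called REDD2, had 26 to 47.7 CPM in Q140 Msh6-/- mice (median 35), against 40.5 to 58.5 CPM in Msh6-/- mice (median 46.2; log2 -0.42 ± 0.09, adjusted p = 0.0266). Both overlapped between the groups, with the highest mice among those without Q140. Gpr153, an orphan receptor, had 23.6 to 36.9 CPM in Q140 Msh6-/- mice (median 29.4), against 34 to 43.8 CPM in Msh6-/- mice (median 38.5; log2 -0.38 ± 0.08, adjusted p = 0.0194). The tetraspanin gene Tspan11 had 11.8 to 14.8 CPM in Q140 Msh6-/- mice (median 12.7), against 14 to 19.6 CPM in Msh6-/- mice (median 16.1; log2 -0.34 ± 0.07, adjusted p = 0.0194). Plk5 and Ddit4l are better known from the striatum, where Q140 lowered both far more in the same mice, as given further on.

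Tmc3, of the transmembrane channel-like family, rose and was scarce. It had 0.427 to 1.01 CPM in Q140 Msh6-/- mice (median 0.709), against 0.131 to 0.78 CPM in Msh6-/- mice (median 0.304), from 124 reads in the Q140 mice and 56 reads in the others (log2 1.1 ± 0.25, adjusted p = 0.0405). The ranges overlapped, with 1 Msh6-/- mouse well above the other 7.

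The striatal marker sums given above overlapped between the cortex groups, with medians of 1820 CPM in Q140 Msh6-/- mice and 1841 CPM in Msh6-/- mice. Among these markers, Drd1 averaged 4.97 CPM in Q140 Msh6-/- mice and 4.76 CPM in Msh6-/- mice, and Ppp1r1b 74.3 and 77.7 CPM in the same order of groups. Of the 21 markers tested, 6 had a log2 fold change above 0 and 15 below. Penk was at -0.32 ± 0.10 and Arpp21 at -0.11 ± 0.04, neither of them called.

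The number of called genes depended on single mice. It was 14 without Msh6-/- animal 33-3 and 15 without Q140 Msh6-/- animal 21-3, and ran from 16 to 31 when any other mouse was left out. In all 16 of these fits 11 genes were called: Abhd1, Atraid, Abca8a, Myh7, Camk2n1, Adam33, Myo5c, Gm2420, Kalrn, Lamp5 and Anln. Of the others, Pknox2 was called in 15 fits, Plk5 in 13, Rtn4r in 12, Mrpl33, Gpr153 and Car2 in 11, Tspan11 in 10, Ddit4l in 9, Tspan2 and Map6d1 in 8, Cgref1 in 6 and Tmc3 in 4. No gene of the 24 changed direction in any of the 16 fits, which reuse the mice in which the genes were chosen. The log2 fold change of Tmc3 ran from 0.97 to 1.38 over the 16 fits, that of Cgref1 from 0.33 to 0.39 and that of Ddit4l from -0.49 to -0.36.

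The same 24 genes were then read in mice that share no animal with the comparison. In cortex with both Msh6 copies, Q140 against wild type called 3 genes of 17622 (0.017%), Abhd1, Gm2420 and Abca8a. This count depended on the fit: DESeq2, which gave an adjusted p for 882 genes and for none of these 3, called 22 others, and edgeR with a covariate for the first part of the animal number called 7, these 3 included. Without an adjusted p, DESeq2 does not show whether the 3 pass or fail. The 3 genes called by the edgeR fit were all among the 24, which is 12.5% of the 24 and 100% of the 3. All 24 genes had the same direction there, and 21 of them had an unadjusted p under 0.05, a level reached by 6.13% of all genes tested. In cortex with 1 Msh6 copy, Q140 Msh6+/- against Msh6+/- called 34 genes (0.193%), 13 higher (0.0738%) and 21 lower (0.119%), of which 12 were among the 24, all in the same direction. These make up 50% of the 24 and 35.3% of the 34. All 24 again had the same direction, and 22 had an unadjusted p under 0.05, against 11.9% of all genes tested.

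The sizes differed. Taken in the direction seen in Msh6-/- mice, the median log2 fold change of the 24 was 0.35 in Msh6-/- cortex, where they were chosen, 0.24 in Msh6+/- cortex and 0.21 in Msh6+/+ cortex. Abhd1 was at 1.42 ± 0.10 in Msh6+/- mice and 1.18 ± 0.09 in Msh6+/+ mice. Its CPM ran from 5.63 to 7.91 in Q140 Msh6+/- mice and 2 to 3.35 in Msh6+/- mice, and from 5.71 to 7.62 in Q140 mice and 2.26 to 3.64 in wild-type mice, so the groups stayed apart in each background. Abca8a was at 0.35 ± 0.08 in Msh6+/- mice and 0.44 ± 0.08 in Msh6+/+ mice, and Anln at 0.37 ± 0.09 and 0.33 ± 0.09. In the other direction, 33 of the 34 genes called in Msh6+/- cortex (97.1%) had the same sign in Msh6-/- cortex.

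**Figure D3:**
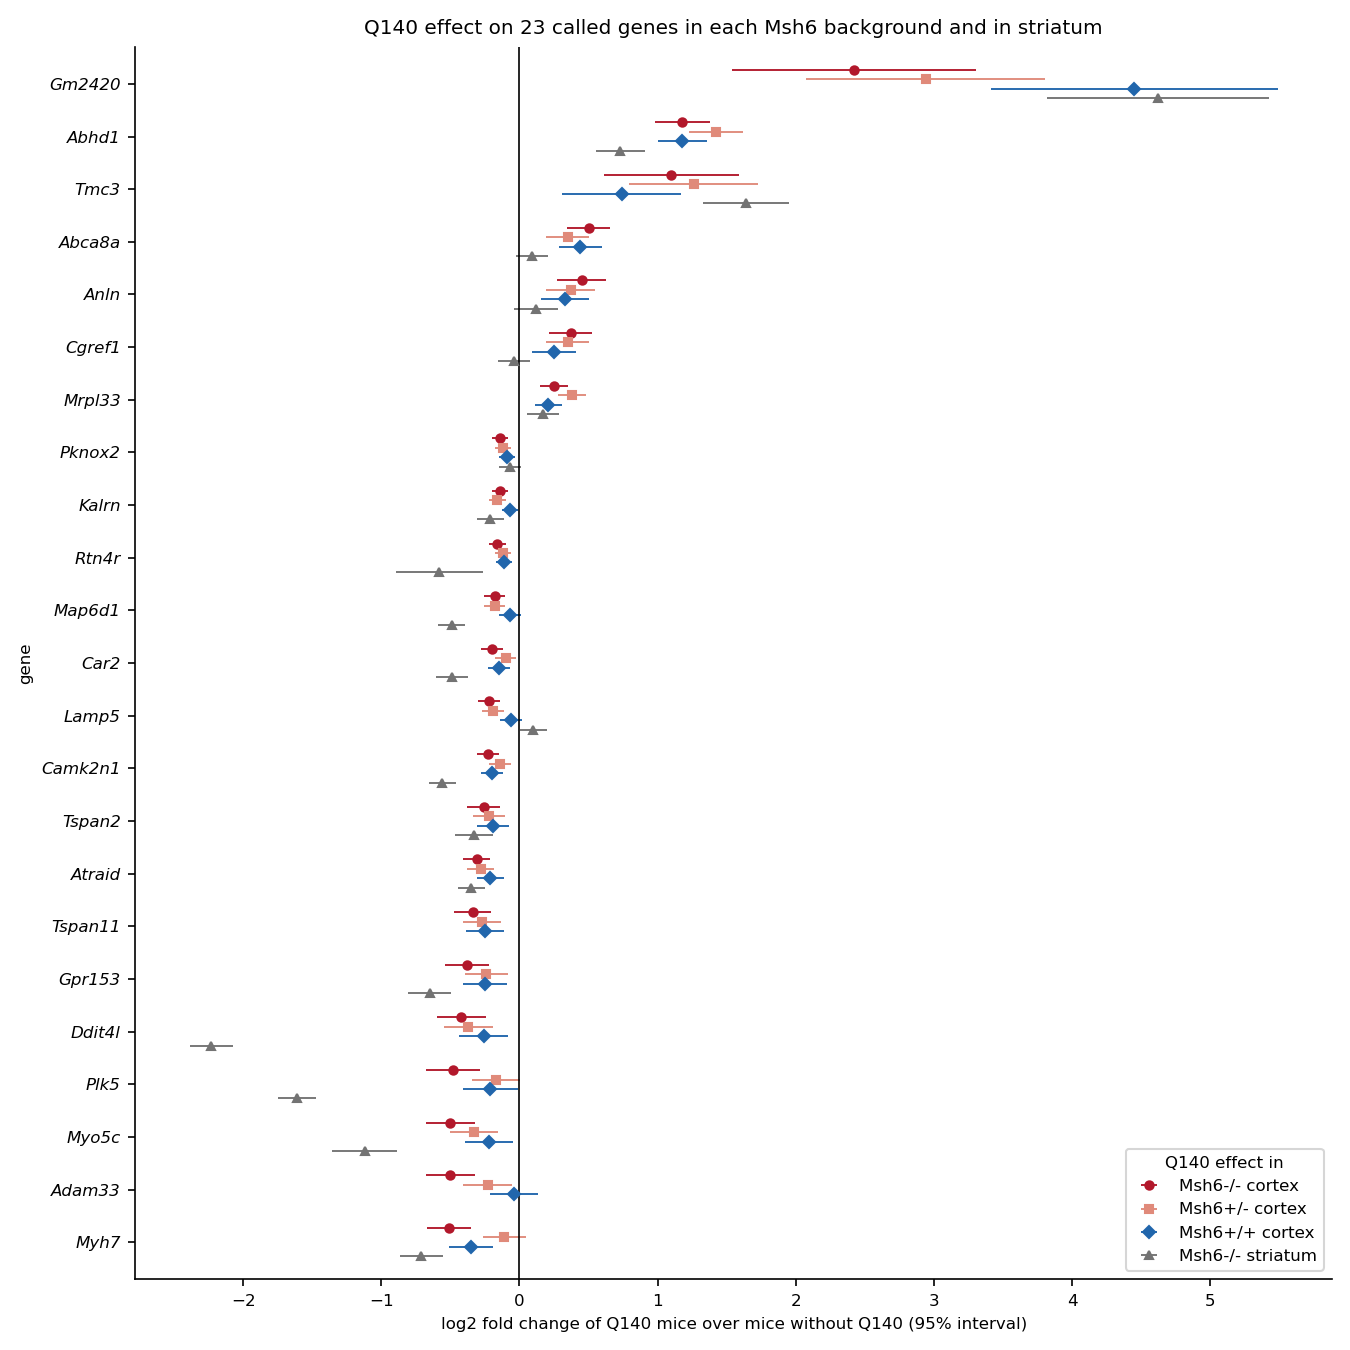
Log2 fold change of Q140 mice over mice without Q140 (horizontal axis, with the 95% interval) for 23 called genes, in cortex of the 3 Msh6 genotypes and in Msh6-/- striatum. All 23 lie on the same side of 0 in the 3 cortex comparisons, and the striatal value of Ddit4l is the lowest, at -2.23. Adam33 and Tspan11 were not tested in striatum.

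Whether the Q140 effect itself differs with Msh6 was tested as an interaction, the effect in Msh6-/- cortex minus that in Msh6+/+ cortex. No gene of 17622 was called (0.0%) by edgeR, nor by DESeq2, and 692 had an unadjusted p under 0.05 (3.93%). Among the 24 genes 4 had an unadjusted p under 0.05 and none an adjusted one. The 24 were chosen by their effect in Msh6-/- cortex, which is part of this difference. That choice alone can widen the difference, so their share cannot be compared with that of all genes. Adam33 differed by -0.45 ± 0.12: its median was 20.5 CPM in Q140 Msh6-/- mice and 31.5 CPM in Msh6-/- mice, against 31 CPM in Q140 mice and 30.7 CPM in wild type. Lamp5 differed by -0.16 ± 0.06, Gm2420 by -2.03 ± 0.87 and Myo5c by -0.28 ± 0.13. The adjusted p was 1 for each of these 4 genes in edgeR. For Abhd1 the interaction was 0.01 ± 0.13.

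The 5 genes with the smallest interaction p were Gm42878, Bet1l, Gm15853, Pnma3 and Amica1, also with an adjusted p of 1. Bet1l, a Golgi transport SNARE, was at -0.10 ± 0.04 in Msh6-/- cortex with an interaction of -0.21 ± 0.05. Pnma3 was at -0.06 ± 0.06 in Msh6-/- cortex, and its interaction was -0.32 ± 0.09. Of the 10 genes with the smallest p for Q140 in Msh6+/+ cortex, 6 were called in Msh6-/- cortex (Abhd1, Gm2420, Abca8a, Camk2n1, Atraid and Myh7). The others were Camkk2, an activator of CaM kinases and AMPK (log2 -0.11 ± 0.03 in Msh6-/- cortex, adjusted p = 0.107), Amn1 (0.04 ± 0.05), Man2b1 (0.04 ± 0.03) and Pnma3.

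The sexes were compared in the same way, as the Q140 effect in Msh6-/- males minus that in females. No gene was called by edgeR (0.0%) or DESeq2, and 486 had an unadjusted p under 0.05 (2.76%). All 24 genes had the same direction in males fitted alone and in females fitted alone. These are the mice in which the 24 were chosen, so this is not a separate test of direction. Of the 24, 2 had an unadjusted p under 0.05 for the difference. Fitted by sex, Tmc3 was at 0.51 ± 0.36 in males and 1.87 ± 0.33 in females, and Map6d1 at -0.26 ± 0.05 in males and -0.10 ± 0.05 in females. The adjusted p of the difference was 1 for both. The 5 smallest p were those of Arih2, Cth, Hs3st4, Foxp2 and Chn2, with adjusted p of 0.821 to 1.

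In the striatum of the same mice the picture was of another scale. There Q140 called 5776 of 17503 genes (33.0%), 3118 higher (17.8%) and 2658 lower (15.2%), and 41.5% of genes had an unadjusted p under 0.05. Of the 24 cortex genes 22 were tested in striatum. There 19 had the same direction, 16 of them called, and 1 gene was called in the opposite direction. The striatum library of Q140 Msh6-/- animal 21-3 stood apart, with choroid plexus markers summing to 2777 CPM against a group median of 49.3 CPM. Without it 5442 genes were called in striatum. The numbers for the 24 stayed at 19 in the same direction, 16 called in it and 1 called in the opposite one.

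The difference of the Q140 effect between the tissues, cortex minus striatum, was tested in 1 fit of all 96 libraries. It was called for 3054 of 18440 genes (16.6%), 1420 with the higher value in cortex (7.7%) and 1634 with the lower (8.86%), and 27.7% of genes had an unadjusted p under 0.05. This split depended on the fit: it was 1658 against 1279 with RLE scaling, 1517 against 957 with no filter on low counts and 1704 against 1325 in DESeq2. Without the striatum library of animal 21-3 the count was 2809 genes, 1628 against 1181, and 14 of the 24 cortex genes were called. The paired fit, with the animal as a replicate block, called 3854 genes (1791 against 2063). In the fit without a term for the animal, 13 of the 24 cortex genes were called for the difference. The 24 were chosen by their cortex effect, which is part of this difference, so their share cannot be compared with that of all genes.

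Where the tissues differed, the effect on 8 of the 13 was larger in striatum, as in Ddit4l (-0.42 ± 0.09 in cortex, -2.23 ± 0.08 in striatum, adjusted p of the difference 1.01e-20) and Plk5 (-0.48 ± 0.10 in cortex, -1.61 ± 0.07 in striatum, 3.16e-12). Camk2n1 was at -0.23 ± 0.04 in cortex and -0.56 ± 0.05 in striatum (3.12e-05). Others had the larger change in cortex. Abhd1 was at 1.18 ± 0.10 in cortex and 0.73 ± 0.09 in striatum (0.00791), and Abca8a at 0.50 ± 0.08 in cortex and 0.09 ± 0.06 in striatum (0.00163). Cgref1 was at 0.37 ± 0.08 in cortex and -0.04 ± 0.06 in striatum (0.00195), and Lamp5 at -0.22 ± 0.04 in cortex and 0.10 ± 0.05 in striatum (7.59e-05). The 5 genes with the smallest p for the tissue difference, Ankrd35, Adcy5, Ipcef1, Scn4b and Fbxl16, were not called in cortex.

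To follow the striatal response in cortex, genes were chosen in mice outside the comparison, by Q140 against wild type in striatum. That called 5201 genes (29.7%), with 39.0% at an unadjusted p under 0.05, of which 5052 were tested in Msh6-/- cortex. There 2957 (58.5%) had the same direction, 16 were called in that direction and 2 in the opposite one, and the median log2 fold change in the striatal direction was 0.011. Of 161 genes changed over 2-fold in striatum, 100 were tested in cortex, where 64 had the same direction. Of these 100, 5 were called (Gm2420, Tmc3, Ddit4l, Plk5 and Myo5c), against 0.136% of all genes tested. In cortex 94 of the 100 had an absolute log2 fold change under 0.5. Their median in the striatal direction was 0.054 there, against a median absolute value of 1.301 in striatum, where they were chosen.

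**Figure D4:**
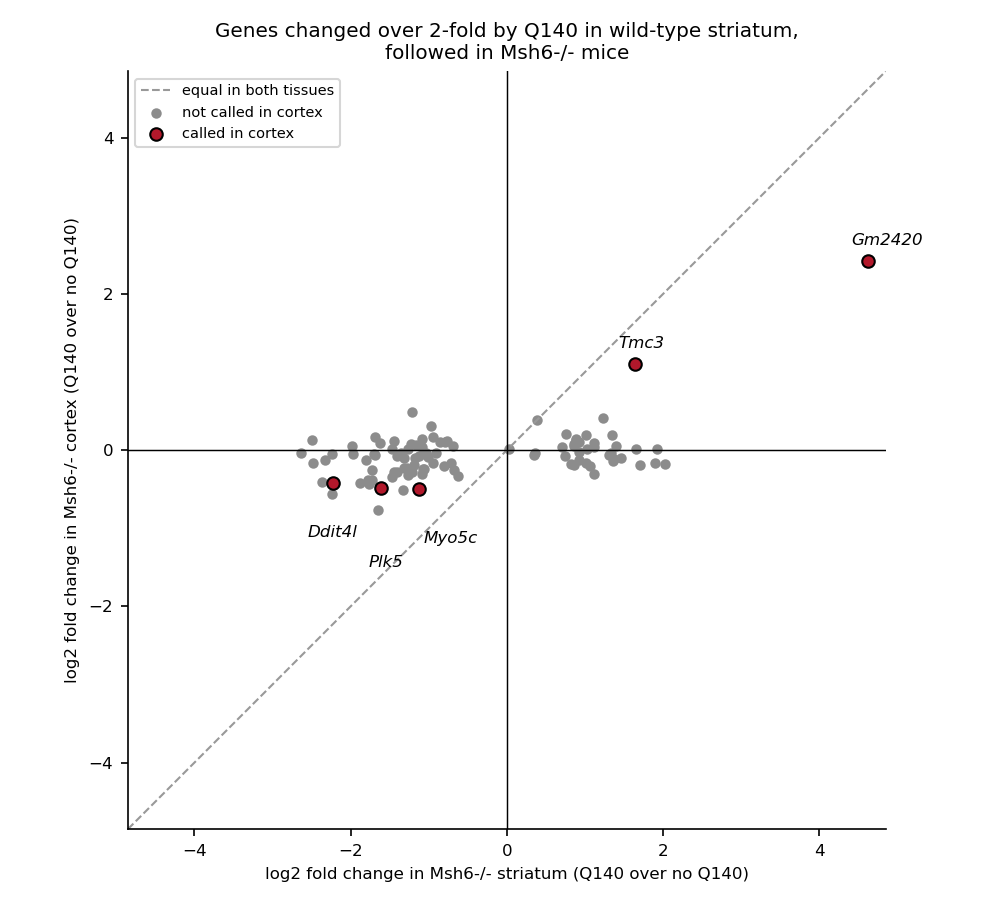
Log2 fold change by Q140 in Msh6-/- striatum (horizontal axis) and Msh6-/- cortex (vertical axis) for 100 genes changed over 2-fold by Q140 in striatum of mice with both Msh6 copies. These are the 100 of 161 such genes that were tested in cortex. The 5 genes called in cortex are red and named, and 94 of the 100 genes lie within 0.5 of 0 on the cortex axis.

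The 10 genes with the smallest p in that striatal comparison show the same in single genes, with CPM as means over 8 mice. Penk, the enkephalin precursor of indirect pathway neurons, averaged 24.7 CPM in Q140 Msh6-/- cortex and 30.9 CPM in Msh6-/- cortex (log2 -0.32 ± 0.10, adjusted p = 0.507), against -1.27 in striatum. Scn4b, a sodium channel subunit, was at 176 and 188 CPM in the same order (-0.10 ± 0.06, adjusted p = 0.983), against -1.32 in striatum. Adcy5, the main striatal adenylyl cyclase, was at 130 and 131 CPM (-0.01 ± 0.03), against -0.77 in striatum. Arpp21 was at -0.11 ± 0.04 in cortex (adjusted p = 0.552), Ppp4r4 at -0.17 ± 0.05 (0.165), Rgs9 at 0.11 ± 0.08 (0.988), Pde1b at 0.02 ± 0.03 and Stmn2 at 0.06 ± 0.04. Only Ddit4l and Plk5 of the 10 were called in cortex.

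Gene lists for cell types and pathways were described by counts, since few of their members changed. Of 37 lists 35 held no called gene, and 2 of 531 list genes tested were called (0.377%), Lamp5 among them. The list medians in cortex stayed within 0.1 of 0 on the log2 scale for 36 lists, against 17 lists in striatum. The exception in cortex was blood, at -1.397 over 4 tested genes, none called, where summed levels ran from 1 to 8.73 CPM in Q140 Msh6-/- mice and 0.307 to 52.5 CPM in Msh6-/- mice.

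Among neuronal lists, the 10 upper-layer markers had a median of -0.083, and 1 fell, Lamp5. Rasgrf2 averaged 319 CPM in Q140 Msh6-/- mice and 350 CPM in Msh6-/- mice (log2 -0.13 ± 0.04, adjusted p = 0.535), and Cux1 at 167 and 181 CPM in the same order (-0.12 ± 0.05, 0.759). The upper-layer markers summed to 1331 to 1465 CPM in Q140 Msh6-/- mice and 1343 to 1588 CPM in Msh6-/- mice. None of 14 deep-layer markers (median 0.032), 13 interneuron markers (-0.015) or 11 excitatory neuron markers (0.004) was called. For 21 striatal projection neuron markers the median was -0.009 in cortex, while in striatum 19 of the 21 fell and the median was -0.629.

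Glial and vascular lists held no called gene. The median was -0.045 for 12 astrocyte markers, 0.054 for 12 microglia markers and 0.018 for 12 endothelial markers in cortex, against -0.111, -0.242 and -0.224 in striatum. Enpp6, a marker of newly formed oligodendrocytes, averaged 3.76 CPM in Q140 Msh6-/- cortex and 2.56 CPM in Msh6-/- cortex (log2 0.55 ± 0.14, adjusted p = 0.0987). It belongs to the oligodendrocyte precursor list, of which 3 of 10 tested members lay above 0 and 7 below (median -0.026). The members with the next smallest p, Cspg4 and Sox10, were at -0.10 ± 0.06 and -0.12 ± 0.08.

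Pathway lists gave values of the same small size. In cholesterol synthesis and its control 17 of 19 genes lay below 0, with a median of -0.079 and none called. Its member with the smallest p was Insig1, a brake on sterol synthesis, at a mean of 52.4 CPM in Q140 Msh6-/- mice and 68.7 CPM in Msh6-/- mice (log2 -0.39 ± 0.09, adjusted p = 0.0864). Insig1 lies on chromosome 5, 6.68 Mb from Htt and on the same side as the called genes of that chromosome. In calcium signalling 18 of 22 genes lay below 0 in cortex, with a median of -0.024 and none called. In striatum 17 of the 22 were called lower, with a median of -0.302. Atp2b2, a calcium pump of the plasma membrane, was at -0.11 ± 0.03 in cortex (adjusted p = 0.269). Across all genes tested 8961 of 17622 lay below 0.

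Of 22 DNA mismatch repair genes none was called in cortex (median -0.028). Pold3, a DNA polymerase subunit, averaged 25.7 CPM in Q140 Msh6-/- mice and 27.9 CPM in Msh6-/- mice (log2 -0.12 ± 0.04, adjusted p = 0.701). The clustered beta protocadherins, cell adhesion genes, stood at a median of 0.011 in cortex with none of 21 called, while 16 of 21 rose in striatum (median 0.547). Medians in cortex were also near 0 for p53 targets (0.006), the interferon response (0.073), the unfolded protein response (0.065), heat shock and chaperones (0.006), the proteasome (0.012), oxidative phosphorylation (-0.004), synaptic vesicle genes (-0.024), glutamate receptors (-0.037), GABA receptors (-0.026), Polycomb group genes (0.003) and huntingtin partners (0.011), with none called. The lists for thalamic neurons (-0.007), hippocampal neurons (0.057), oligodendrocyte precursors (-0.026), pericytes, fibroblasts and meninges (0.036), and choroid plexus and ependyma (0.018) held none either. Nor did those for immediate early genes (-0.071, against -0.410 in striatum), the glucocorticoid response (0.055), the circadian clock (-0.068, against -0.333 in striatum), sodium and potassium channels (-0.016), neuropeptides (-0.037), neurotrophins (-0.065), and autophagy and lysosomes (0.000).

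**Figure D5:**
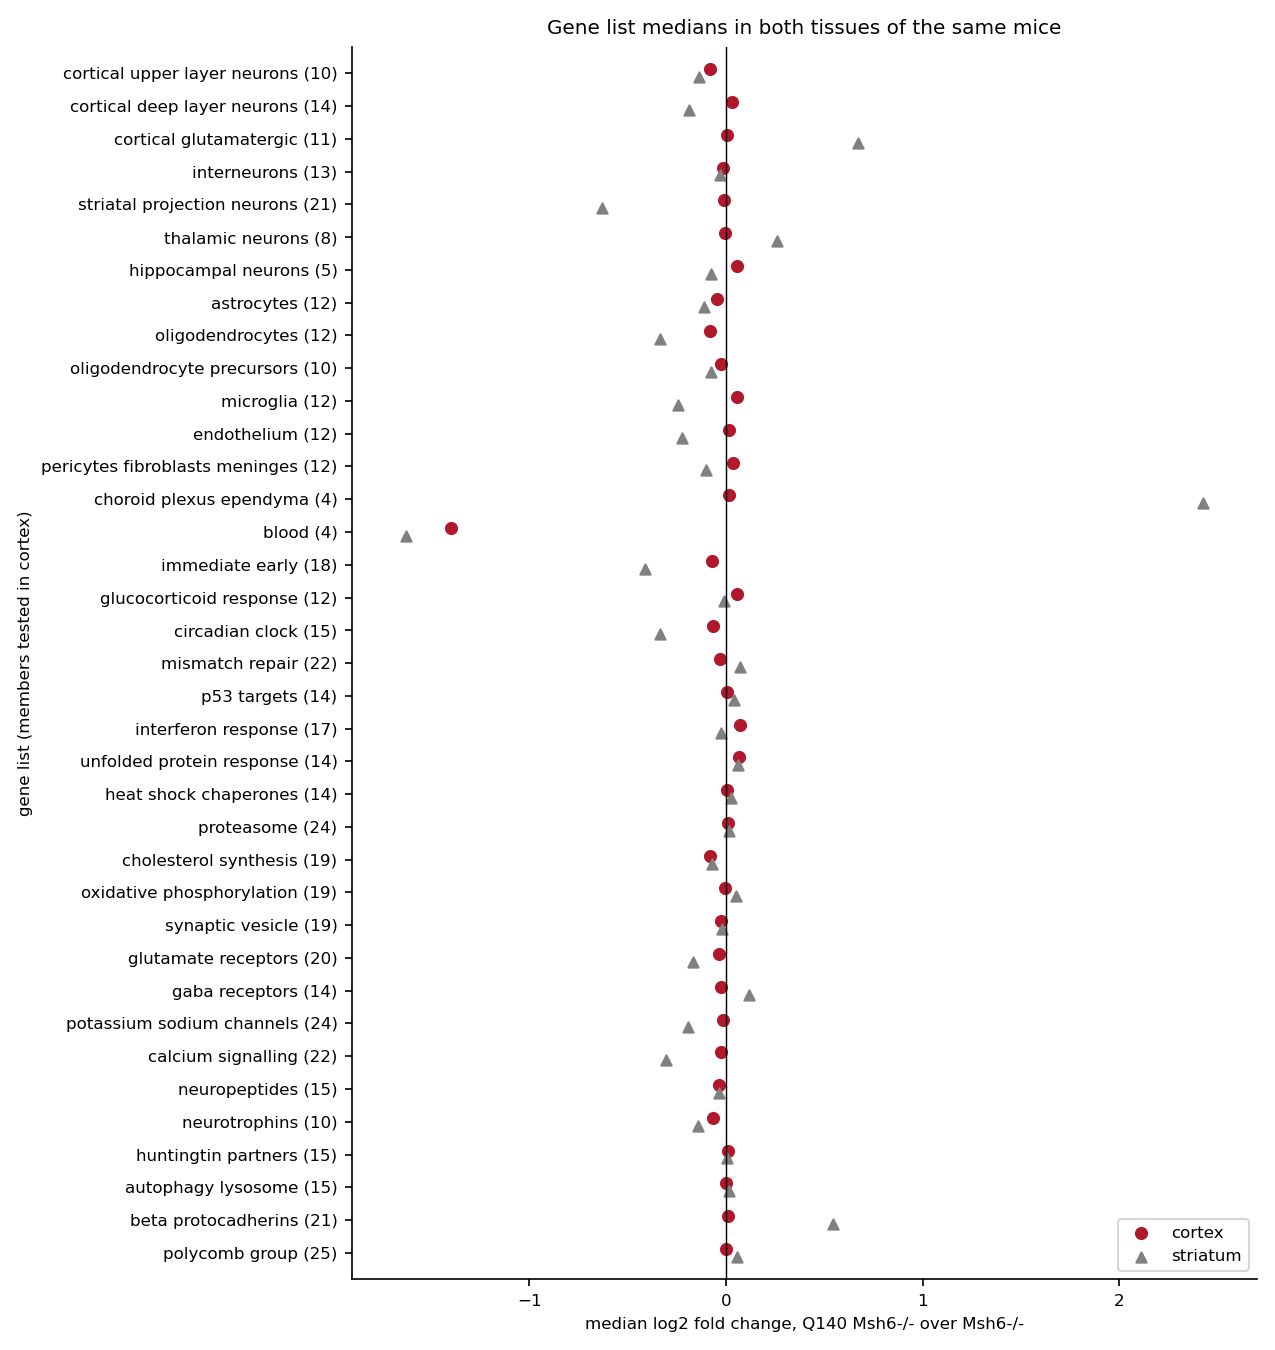
Median log2 fold change of Q140 Msh6-/- over Msh6-/- mice (horizontal axis) for 37 gene lists, in cortex (red circles) and in striatum of the same mice (grey triangles), with the number of members tested in cortex in brackets. All cortex medians but that of blood lie within 0.1 of 0, against 17 of 37 in striatum. The striatal value of the choroid plexus list, 2.424, includes the library of animal 21-3.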

How the data were processed

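RNA was extracted from cortex and striatum with Qiagen RNeasy kits and made into TruSeq stranded libraries, per the labels' protocols. The submitters' processing notes name STAR 2.7.5c, SAMtools 1.10, HTSeq 0.12.3 and the GRCm38 (mm10) build. Neither how strand was set in counting nor which annotation was used is stated in these sources. The deposited values are read counts per gene, not normalized, for 48795 genes, and the authors' FPKM values, used only in an alternative. Gene positions came from GENCODE M21, which held 48435 of the 48795 gene IDs.

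Counts were fitted in R 4.3.3 with edgeR 4.0.16 (TMM scaling, filterByExpr with a minimum count of 10 and a minimum total of 15, quasi-likelihood test) over the 48 cortex libraries, with a term for each genotype and for sex, and p-values were adjusted by Benjamini-Hochberg over all genes tested. A gene was called at an adjusted p under 0.05. The same was done over the 48 striatum libraries, and the tissue difference was fitted over all 96. SE is the absolute log2 fold change divided by the square root of the F statistic, and a 95% interval is drawn from it. CPM uses TMM-scaled library sizes. The fits were tested on simulated data.

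The alternatives were RLE scaling, no filter, the fit without sex, a covariate for the first part of the animal number, the compared groups alone, each sex alone, each mouse left out, an adjusted p under 0.1, DESeq2 1.42.0, and limma 3.58.1 on log2(FPKM + 1) and log2(FPKM + 0.1). Leaving out the striatum library of animal 21-3 and the Msh6+/- pair of groups were added after seeing the data. Cortex and striatum libraries carry the number of the animal they came from. Over 48 animals and 18440 genes the deviations of an animal's libraries from their group means correlated at a median r of 0.103 (-0.024 to 0.187), against -0.003 for libraries of other animals, and 36 animals matched best with themselves.

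The text names Htt, Msh6, every called gene, the 10 genes with the smallest p for Q140 in Msh6+/+ cortex and striatum, the 5 with the smallest p for each difference, and up to 3 members of a list; other genes named were chosen after their values were seen. 1 called gene and a few list members are not reported here. The members and the lists were chosen with earlier results of these data known. The counts limit precision for scarce genes, and each p-value sets a difference between groups against the spread between mice.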

Additional observations from a re-analysis of the deposited data

Results flagged for a closer look

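In 2 of 50 groups of 8 mice, over the called genes reported here, Htt and Msh6 in the groups compared, 1 mouse stood apart from the others, and chance sets apart about 1 group in 20. Gm2420 had 0.316 CPM in Msh6-/- animal 24-3, against at most 0.131 CPM in the other 7, and without that mouse its log2 fold change was 3.02 (edgeR adjusted p = 3.92e-04). Tspan11 had 14.8 CPM in Q140 Msh6-/- animal 38-1, against 11.8 to 13.1 CPM in the others, and without it the log2 fold change was -0.36 (edgeR adjusted p = 0.0180).

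For 12 of the called genes reported here the Q140 effect differed between cortex and striatum of Msh6-/- mice in the test of the difference itself. That test had no term for the animal, though both tissues came from the same mice, and the genes were chosen by their cortex effect. Given as the effect in cortex minus that in striatum, on the log2 scale, it was higher by 1.80 for Ddit4l, 1.13 for Plk5, 0.62 for Myo5c, 0.45 for Abhd1, 0.42 for Rtn4r, 0.41 for Cgref1, 0.40 for Abca8a, 0.33 for Camk2n1, 0.31 for Map6d1 and 0.29 for Car2. It was -0.32 for Lamp5 and -2.22 for Gm2420. Rtn4r was scarce in striatum, at 0.633 to 1.52 CPM in Q140 Msh6-/- mice and 1.31 to 2.0 CPM in Msh6-/- mice.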

How the results depend on the processing

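Over 621 combinations of a called gene and an alternative, all 621 kept the direction and 153 lost the call. The alternatives reuse the mice in which the genes were chosen, so a kept direction is not a separate test. The 24 genes called in Msh6-/- cortex became 14 (5 higher, 9 lower) in limma on log2(FPKM + 1) and 14 on log2(FPKM + 0.1), 14 with the compared groups alone, 7 in males alone and 6 in females alone. Leaving out each mouse gave 14 to 31 genes, of which 14 to 24 were among the 24. RLE scaling gave 24, no filter 26, no sex term 16, the number prefix 27 and DESeq2 35, of which 23 were shared. The 3 genes called in Msh6+/+ cortex became 7 with the number prefix and 1 with the compared groups alone. DESeq2 called 22 others there, but gave an adjusted p for 882 genes only and for none of the 3. It therefore does not show whether the 3 pass or fail. The sex difference went to 2 genes with no filter. The paired fit, with the animal as a replicate block, called 3854 genes for the tissue difference. The cause of these shifts was not tested, and the fits by sex also held fewer mice. Of 74 list medians under an alternative 73 moved little, and that of blood was -0.373 on log2(FPKM + 1). Depth limits Gm2420 and Tmc3, with 14 and 56 reads over the 8 Msh6-/- mice.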
